A study of Rattus norvegicus with 9 samples.

Results

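Oxytocin and vasopressin are related neuropeptides, and this account follows their genes, Oxt and Avp, together with the genes of the oxytocin receptor, Oxtr, and the vasopressin V1a receptor, Avpr1a, in the frontal cortex of rats. The 4 genes were chosen by name with their counts in these rats already known, chiefly the concentration of Oxt reads in a single animal, and all 4 were found among the 37209 genes of the table. Because of that choice their levels and fold changes are given as a description, with standard errors but no p-values. Total RNA depleted of rRNA was sequenced from 9 male Wistar rats, 3 per group, aged 14 weeks per the labels. Control rats (A1, A2 and A6) were left undisturbed with their mothers until weaning. MS rats (B3, B4 and B6) were maternally separated for 4 h per day from postnatal day (PND) 1 to PND 21. MS+EA rats (C3, C10 and C16) were separated in the same way and then received electroacupuncture at the acupoints GV20 and GV29 every other day between PND 61 and PND 81. According to the methods of the study, Control and MS rats were anesthetized like the treated rats, and the sham electroacupuncture group of the behavioral tests was not sequenced. The litters of the rats are not given in the sources used here.

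Oxytocin and vasopressin are made mainly by large neurosecretory neurons of the paraventricular and supraoptic nuclei of the hypothalamus, which send them to the posterior pituitary and into the brain. Cortical neurons carry the receptors but are not a usual site of synthesis of the peptides. Oxtr and Avpr1a are both G protein-coupled receptors that act mainly through Gq and phospholipase C, and both are studied for their part in maternal care, social behavior and the response to stress. The question put to these genes is therefore where their reads were found and whether separation or electroacupuncture moved them.

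The libraries held between 12479905 and 19007907 counts, and the highest total of the MS+EA group, 14913736, was below the lowest of the other groups, 16106381. Expression is given in CPM, the read count of a gene relative to the total of its library after TMM scaling, which adjusts totals for differences in composition, and 3 counts, which were 0.160 to 0.238 CPM depending on the rat, were taken as the detection floor. All 8 markers of cortical excitatory neurons on a fixed list were above the floor in every rat, with a summed expression of 4030 to 4660 CPM in Control, 4100 to 4140 CPM in MS and 3520 to 3660 CPM in MS+EA rats, so that the MS+EA rats were all lowest. Genes held mostly by a single rat were also counted over the table. Of the 17552 genes with at least 50 counts over the 9 rats, 9 had more than 50% of their summed CPM in B4, against 0 to 4 in each other rat. That count is not independent of the choice of genes, since it includes Oxt, Avp and the 4 genes named below for their similar profiles. Those 4 genes were picked for profiles like those of Oxt and Avp, which lie mostly in B4. A count without them would thus be lowered for B4 by construction. With only Oxt and Avp left out, B4 would still have the most such genes. Results that rest on B4 are given with and without it.

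Oxt encodes the precursor of oxytocin and its carrier neurophysin. Among Control rats, A1 had 25 Oxt reads, A2 had 2 and A6 had 4. Among MS rats, B3 had 14, B4 had 258 and B6 had 4, whereas C3 and C10 of the MS+EA group had 1 each and C16 had 0. A single rat, B4, thus held 83.5% of the 309 Oxt reads, and its 16.1 CPM was 12.1-fold above the next rat, A1. All MS+EA rats were under the floor, and the 0 reads of C16 allow a level of up to 0.238 CPM when 3 counts are taken as the limit, or 0.293 CPM at the upper end of the exact Poisson interval that the plot of the 4 genes uses. The ranges of the MS and Control rats overlapped, since A1 had more Oxt than B3 and B6.

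Avp encodes the precursor of vasopressin. Its reads numbered 29, 3 and 3 in A1, A2 and A6, then 27, 503 and 15 in B3, B4 and B6, and 9, 13 and 0 in C3, C10 and C16. B4 again held most of the reads, 83.6% of 602, and its 31.4 CPM was 20-fold above the next rat, B3. The same rats were therefore high for both peptides: B4 by far, then A1 and B3.

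**Figure D1:**
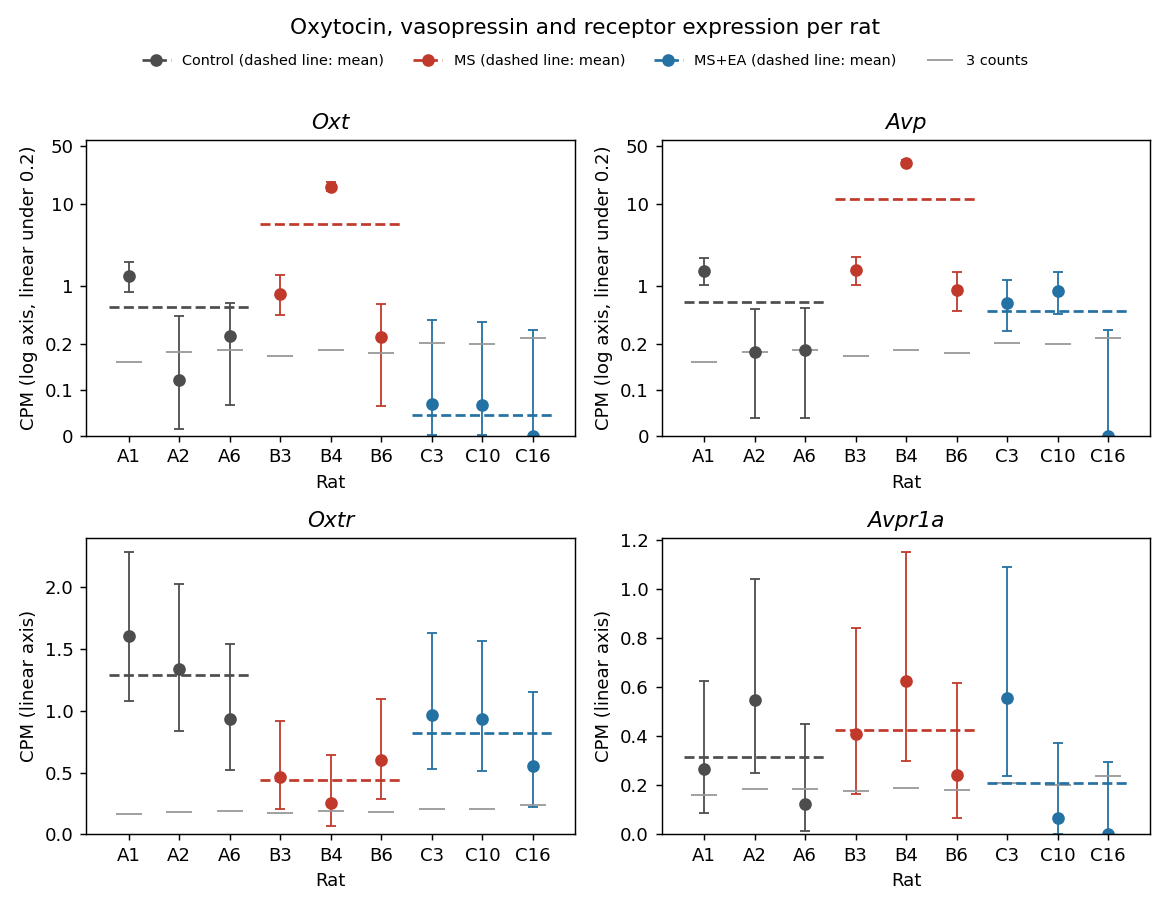
Expression of Oxt, Avp, Oxtr and Avpr1a in CPM in each rat, with 95% exact Poisson intervals of the count, which cover counting error only, dashed lines at the group means and gray ticks at 3 counts. B4 stands at 16.1 CPM for Oxt and 31.4 CPM for Avp, and the Oxtr values of the 3 MS rats lie below those of the 3 Control rats.

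The mean Oxt level of MS rats was 5.73 ± 9.01 CPM (SD, n = 3), followed by Control rats at 0.569 ± 0.668 CPM (SD, n = 3) and MS+EA rats at 0.0454 ± 0.0394 CPM (SD, n = 3). In this order no neighboring groups differed by more than the larger of their SDs. The log2 fold change of Oxt in MS relative to Control rats was 3.26 (edgeR, standard error 1.17) over all rats and -0.14 without B4. Single rats set the means of both groups. Without B4 the MS mean was 0.528 CPM (n = 2), and without A1 the Control mean was 0.185 CPM (n = 2). With A1 left out and B4 kept, the log2 fold change was 4.89. Mean Oxt of MS rats was 26.5 times the floor of 3 counts per MS+EA library with B4, and 2.45 times without it. For Control rats the ratio to that floor was 2.64 with A1 and 0.859 without it. These ratios leave out counting error, and the upper Poisson limits of C3 and C10, 0.386 and 0.373 CPM, were above the floor.

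Avp averaged 11.3 ± 17.4 CPM (SD, n = 3) over MS rats, 0.640 ± 0.789 CPM (SD, n = 3) over Control rats and 0.498 ± 0.449 CPM (SD, n = 3) over MS+EA rats, and here too the differences were within the SD of the MS group. For MS against Control rats Avp had a log2 value of 4.06 (standard error 1.22) with all rats, of 0.90 without B4 and of 5.87 without A1. In MS+EA relative to MS rats it was -4.42 (standard error 1.30) over all rats and -1.25 without B4. Between MS+EA and Control rats the log2 value for Avp was -0.36 (standard error 1.64), which became 1.45 without the Control rat A1.

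Oxt and Avp in MS+EA rats were below every MS rat, but for Avp the highest MS+EA rat, C10 at 0.870 CPM, nearly met the lowest MS rat, B6 at 0.901 CPM. Among all 16837 tested genes, 9.60% were lower in every MS+EA rat than in every MS rat. Oxt was also below every Control rat in the MS+EA group, where the Control rat A2 was itself under the floor, and this held for 12.9% of tested genes.

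Oxt and Avp lie next to each other on the chromosome, and their transcripts run towards each other, with 0 genes annotated between them in RefSeq. The annotated genes on either side are Mrps26, a mitochondrial ribosomal protein gene next to Oxt, and Ubox5, a ubiquitin ligase gene next to Avp. Mrps26 ranged from 11.4 to 16 CPM over the 9 rats and had 15.1 CPM in B4. Ubox5 ranged from 23.2 to 29.2 CPM and had 27.1 CPM in B4. The high B4 values of Oxt and Avp were thus not shared by the flanking genes, which were chosen for their position.

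The 250 bases before the annotated start of each peptide gene are shown because both genes were high in the same rats from promoters at the outer ends of the pair. The sequences are from RefSeq on GRCr8, whereas the reads had been mapped to Rnor_6.0. All 4 genes were matched in the promoter table. Oxt lies on the plus strand, with this window at chr3:138235504-138235753, and Avp on the minus strand, with its window at chr3:138248523-138248772. Capitals mark matches on either strand to TGACC, which is the core of many nuclear receptor sites. They also mark matches to ATAAA, letters found in the box that positions the polymerase.
Oxt: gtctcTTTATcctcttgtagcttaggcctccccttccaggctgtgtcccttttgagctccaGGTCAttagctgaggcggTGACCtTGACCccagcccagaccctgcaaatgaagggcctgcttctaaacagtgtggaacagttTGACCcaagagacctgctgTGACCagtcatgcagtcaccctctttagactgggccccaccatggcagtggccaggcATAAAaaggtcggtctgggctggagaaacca
Avp: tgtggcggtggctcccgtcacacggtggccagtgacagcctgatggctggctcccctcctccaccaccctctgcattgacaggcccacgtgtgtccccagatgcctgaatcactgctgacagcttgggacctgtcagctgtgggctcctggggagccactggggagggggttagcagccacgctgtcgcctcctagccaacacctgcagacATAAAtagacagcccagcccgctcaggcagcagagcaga

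In the Oxt window TGACC matched 5 times on either strand, and in the Avp window it matched 0 times. The Oxtr window held 2 matches and that of Avpr1a 0. This motif was present at least 1 time in 35.4% of the 33469 promoter windows of the same length. The share of windows with 5 matches was not counted. ATAAA matched on the coding strand 31 bases before the start of Oxt and 39 bases before the start of Avp, and it was present on either strand in 39.3% of all windows. The E-box CACGTG matched once, 165 bases before the start of Avp, and was present in 5.59% of windows. The letters TGACG, the core of cAMP response elements, matched 1 time in the Avp window and 0 times in that of Oxt, and 18.2% of windows held them. These matches describe the sequence only.

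Reads could be set side by side for the pair in every rat but C16. Oxt made up 33.9% of the summed Oxt and Avp reads in B4 (258 of 761, 95% exact binomial interval 30.5% to 37.4%) and 34.1% in B3 (14 of 41, interval 20.1% to 50.6%). In A1 the share was 46.3% (25 of 54, interval 32.6% to 60.4%), and in B6 it was 21.1% (4 of 19, interval 6.05% to 45.6%). The MS+EA rats C3 and C10 had lower shares, 10% of 10 reads (interval 0.253% to 44.5%) and 7.14% of 14 reads (interval 0.181% to 33.9%). With fewer reads, A2 had 40% of 5 reads (interval 5.27% to 85.3%) and A6 had 57.1% of 7 reads (interval 18.4% to 90.1%). The intervals of A1, B3, B4 and B6, the rats with most of these transcripts, overlapped. Those of C3, C10, A2 and A6 overlapped with them too. Overlapping intervals do not show equal shares, and differences in share between rats were not tested. The coding sequences of the precursors share a nearly identical stretch in the neurophysin part, and the treatment of reads with several locations is not given in the sources used here, so the split of reads between the genes is uncertain.

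**Figure D2:**
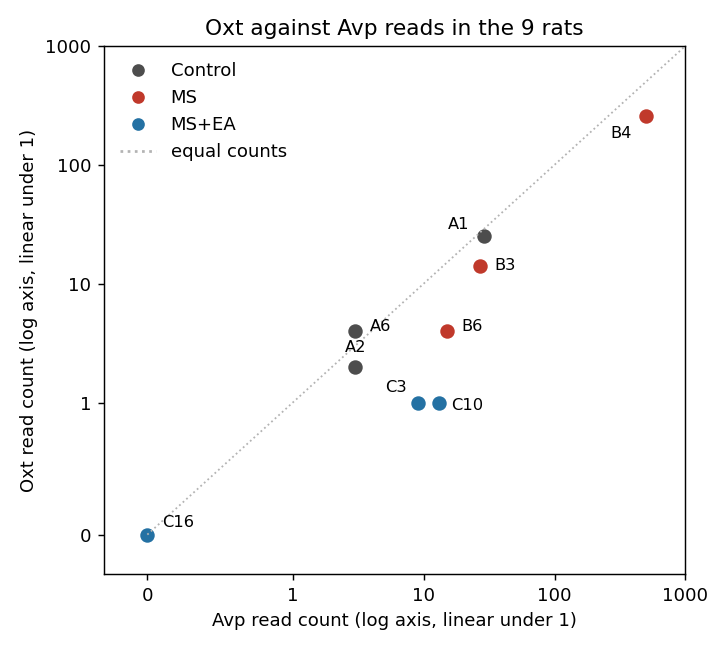
Read counts of Oxt (vertical axis) against Avp (horizontal axis) in each rat, on log axes that are linear under 1, with the dotted line at equal counts. B4 lies at 258 and 503 reads, A1 at 25 and 29, and B3 at 14 and 27, while C16 has 0 reads of both.

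Other genes made in the hypothalamus were then read in the same rats, from a fixed list of 19. Sim1 and Otp, transcription factors required for the development of the oxytocin and vasopressin neurons, had their highest counts in B4. Sim1 reached 13 reads in B4 against 3 or fewer elsewhere, and Otp had 5 reads in B4, 1 in A1 and 0 in the rest. Pmch, the precursor of melanin-concentrating hormone of the lateral hypothalamus, had 4 reads in B4 but 31 in A1, 18 in B3 and 16 in B6. Hcrt, the orexin precursor, had 23 reads in A1 and 0 in B4. Rax, Hmx2 and Hmx3 had no reads in any rat, and Nkx2-1 had at most 11, in C10. The summed list was 4.16 to 8.77 CPM in Control rats, 5.25 to 6.29 CPM in MS rats and 5.36 to 6.65 CPM in MS+EA rats, and B4 at 5.25 CPM was the lowest of the MS rats. Much of that sum came from Magel2, an imprinted gene that had 2.19 CPM in B4 and 1.86 to 4.75 CPM in the other rats.

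Some markers of other tissues were also highest in B4. The 7 choroid plexus markers summed to 20.9 CPM in B4, 2.92-fold above the next rat, C3 at 7.14 CPM, and to 1.47 to 3.11 CPM in A1, A2, A6, B3 and C10. Ttr, the transthyretin gene of the choroid plexus, had 146 reads in B4 against 37 in the next rat, B6. Kcnj13, a potassium channel gene of the same epithelium, had 112 reads in B4 and 46 in C3. Aqp1 had 34 reads in B4 and 23 in C16, Kl had 25 in B4 and 18 in B6, and Clic6 had 13 in B4 and 8 in C3. Folr1 was highest in A1, with 7 reads against 4 in B4. Otx2, which specifies that epithelium, had no reads in any rat. Chrnb3, a nicotinic receptor subunit gene of the habenula, had 170 reads in B4, the highest count. It had 0 to 3 reads in the Control rats and 15 to 58 in the other MS and MS+EA rats, so B4 was not alone in having it. Of other habenular markers, Chrna3 had 19 reads in B4 against 5 to 23 elsewhere, and Gpr151 and Pou4f1 had at most 1 read in any rat. Synpo2, on the thalamus list, had 237 reads in B4 and 83 in C16. Prkcd, Zic1, Lef1, Tcf7l2, Rgs16 and Lhx9 of the same list were also highest in B4, by smaller margins. Prkcd had 30.0 CPM in B4 and 26.5 CPM in C16, and Lef1 had 11.4 CPM in B4 and 7.75 CPM in A1. The rest of the list was highest in other rats, Ramp3 in A6 and Tnnt1 in C16. Slc17a6, the vesicular glutamate transporter gene of thalamic neurons, had 8.75 CPM in B4 and 5.48 to 20.2 CPM in the other rats. Gbx2, a thalamic transcription factor gene, had 4 reads in C10 and 0 in all other rats. The summed levels were 72.9 to 126 CPM for the 11 thalamus markers, with B4 highest, 136 to 193 CPM for the 8 habenula markers, with C10 highest, 255 to 300 CPM for the 8 striatum markers, 32.3 to 37.4 CPM for the 7 septum and basal forebrain markers and 0.487 to 1.81 CPM for the 8 pituitary markers, again with B4 highest. Most of the habenula sum came from Nwd2, which had 116 CPM in C3, 179 CPM in C10 and 151 CPM in each Control rat. Trpc4, at 28.8 to 34.7 CPM, made up most of the septum and basal forebrain sum. Most of the pituitary sum came from Lhb, the beta subunit gene of luteinizing hormone, which had 26 reads in B4 and 7 to 17 in the other rats. Cga, the common subunit gene, had 2 reads in B4, 2 in C3 and 4 in C16, while Gh1 and Fshb had no reads and Prl had 1 in all. The part of such tissue in the Oxt and Avp levels was not tested. In bulk tissue, fewer cells of a type and less RNA per cell cannot be told apart.

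**Figure D3:**
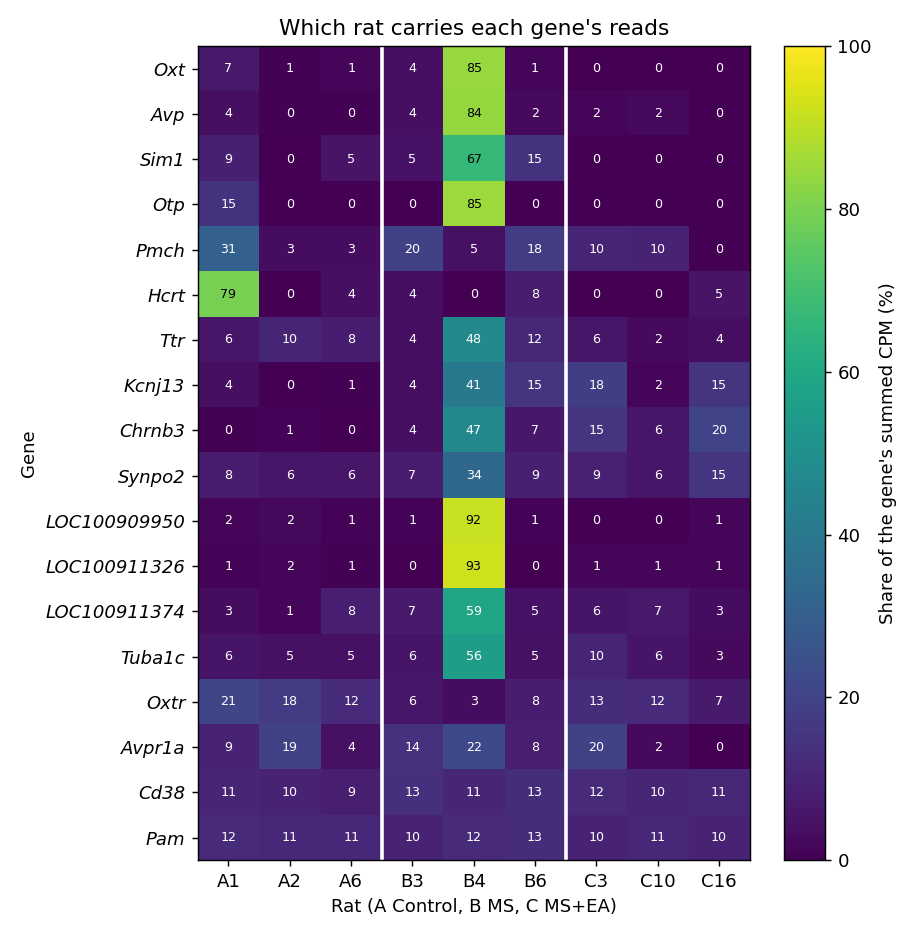
Share of each gene's summed CPM held by each rat, in percent, for Oxt, Avp, hypothalamic and other markers, the genes with the most similar profile, the receptors and Cd38 and Pam as genes spread over all rats. The bright B4 column shows 84.8% for Oxt and 84.2% for Avp, whereas Hcrt and Pmch are highest in A1.

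The similarity of genes to the members was measured as the overlap of their profiles, which adds up, over the 9 rats, the smaller of the shares of summed CPM that both genes have in a rat. Among 17551 other genes, the gene most like Oxt was Avp, and the gene most like Avp was Oxt, with an overlap of 95.6%. They were followed for Oxt by LOC100909950 at 90.4%, LOC100911326 at 87.6%, LOC100911374 at 70.4% and Tuba1c, a tubulin gene, at 70.2%. The same genes followed for Avp in the same order, at 89.1%, 88.6%, 73.8% and 72.0%. These 4 genes had 85, 165, 91 and 84 reads in B4, and LOC100909950 and LOC100911326 did not exceed 3 reads elsewhere. A1 and B3, the next highest rats for the peptide genes, had 2 and 1 reads of LOC100909950 and 2 and 0 of LOC100911326.

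Oxtr showed another pattern. A1, A2 and A6 had 30, 22 and 15 Oxtr reads, B3, B4 and B6 had 8, 4 and 10, and C3, C10 and C16 had 14, 14 and 7. It was above the floor in all 9 rats, no rat held more than 21.0% of its summed CPM, and B4, the rat richest in the peptides, had the least Oxtr, 0.250 CPM. The 3 MS rats, at 0.250 to 0.601 CPM, were all below the 3 Control rats, at 0.932 to 1.60 CPM. In the same direction, 7.53% of all tested genes had ranges that did not overlap.

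The mean Oxtr level of Control rats was 1.29 ± 0.339 CPM (SD, n = 3), that of MS+EA rats 0.821 ± 0.230 CPM (SD, n = 3) and that of MS rats 0.439 ± 0.177 CPM (SD, n = 3). In this order neighboring means differed by more than the larger of their SDs, although neighboring ranges overlapped. For MS against Control rats the log2 fold change was -1.54 (standard error 0.435), and leaving out any rat kept it between -1.83 and -1.27. In MS+EA relative to MS rats the log2 fold change was 0.90 (standard error 0.461), and it lay between 0.63 and 1.18 with a rat left out. The groups overlapped because C16 at 0.556 CPM was below B6. In MS+EA relative to Control rats the log2 fold change was -0.64 (standard error 0.411), again with overlapping ranges. These differences rest on 67, 22 and 35 reads in the Control, MS and MS+EA groups, and the Poisson interval of the 4 reads in B4 runs from 1.09 to 10.2 counts.

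The genes with the profiles most like that of Oxtr were the lncRNA LOC102548078 at 92.5%, LOC100359701 at 91.5% and Slc24a1, a sodium, calcium and potassium exchanger gene, at 90.9%. All 3 had their highest level in the Control rat A1, as Oxtr did. LOC100359701, the most abundant of them with 418 reads, numbered 97, 72 and 68 reads over Control rats, 28, 17 and 35 over MS rats, and 22, 46 and 33 over MS+EA rats.

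Avpr1a was close to the floor throughout. A1, A2 and A6 had 5, 9 and 2 reads, B3, B4 and B6 had 7, 10 and 4, and C3, C10 and C16 had 8, 1 and 0, in all 46 reads, and it did not pass the filter on low counts that the other 3 genes passed. The group means were 0.424 ± 0.193 CPM (SD, n = 3) for MS, 0.313 ± 0.216 CPM (SD, n = 3) for Control and 0.207 ± 0.303 CPM (SD, n = 3) for MS+EA. The ranges of all groups overlapped and the means of neighboring groups differed by less than their SDs, so a difference was not detectable at this depth. C3, with 0.554 CPM, was within the range of the MS rats, while C10 and C16 were under the floor. The genes with the most similar profiles were LOC102552199 at 89.5%, LOC102546477 at 89.2% and Fcgr1a, an immunoglobulin receptor gene of myeloid cells, at 86.9%.

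The remaining vasopressin receptors were not measurable. Avpr1b, the V1b receptor of the pituitary and of hippocampal CA2 neurons, had 4 reads in A1 and at most 3 in each other rat. Avpr2, the receptor of the kidney collecting duct, had 0 reads in every rat, and 3 counts correspond to 0.238 CPM in the smallest library.

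The other genes of the system came from a list of 39, of which 35 were tested. Between MS and Control rats 0 of them passed an adjusted p under 0.05 with a fold change above 1.5 in edgeR's quasi-likelihood test, against 0.0238% of all tested genes, and 3 had an unadjusted p under 0.05, beside 10.6% of all tested genes. Between MS+EA and MS rats 0 passed, against 0.0178% of all tested genes, and 5 had an unadjusted p under 0.05, beside 12.4%. Between MS+EA and Control rats 0 passed, against 1.37% of all tested genes, and 6 had an unadjusted p under 0.05, beside 22.5%. DESeq2 also called 0 of them in each comparison. Their median log2 fold changes were 0.03, -0.12 and -0.08 in these comparisons, beside medians of -0.001, 0.001 and 0.006 over all 16837 tested genes.

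Among the genes that process, store and release the peptides, Cd38, whose product is needed for the release of oxytocin, averaged 7.80 ± 0.970 CPM (SD, n = 3) over Control, 10.1 ± 1.10 CPM (SD, n = 3) over MS and 9.07 ± 0.806 CPM (SD, n = 3) over MS+EA rats. Between MS and Control rats its log2 value was 0.37 (edgeR adjusted p = 0.405). Bst1, the relative of Cd38, had 6 to 30 reads per rat and a log2 fold change of 0.27 in the same comparison (edgeR adjusted p = 0.906). Scg3, a granin that sorts peptides into dense-core vesicles, was lower in MS+EA than in Control rats by an adjusted p of 0.0479 in edgeR, but its log2 fold change of -0.23 was under the threshold. Log2 fold changes of the 12 genes of this list, which also holds the convertases Pcsk1 and Pcsk2, the convertase inhibitor Pcsk1n, the trimming and amidating enzymes Cpe and Pam, and the granins Scg2, Scg5, Chga and Chgb, lay between -0.25 and 0.37 in MS relative to Control rats.

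Lnpep, the placental leucine aminopeptidase that cleaves oxytocin and vasopressin, was read 15, 12 and 16 times in A1, A2 and A6, 43, 10 and 45 times in B3, B4 and B6, and 5, 16 and 13 times in C3, C10 and C16. The MS rats B3 and B6 were high and B4 was not. The log2 fold changes were 1.21 between MS and Control rats (edgeR adjusted p = 0.444) and -1.25 between MS+EA and MS rats (edgeR adjusted p = 0.366). Prep, a prolyl peptidase that also acts on both peptides, had log2 fold changes of 0.05 and -0.07.

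The 18 genes of receptor signalling had log2 fold changes between -0.23 and 0.32 in MS relative to Control rats, with 11 higher and 7 lower. Plcb1, a phospholipase C that Gq activates, had a log2 fold change of 0.32 there (edgeR adjusted p = 0.394). In MS+EA relative to MS rats, 13 of the 18 were lower and 5 higher, and 0 were called. Their median log2 fold change was -0.13, beside 0.001 over all tested genes. There Rgs4, which shortens Gq and Gi signals, had -0.26 (edgeR adjusted p = 0.323), Grk5, a receptor kinase, -0.18 (edgeR adjusted p = 0.331) and Gnai2, a Gi subunit gene, -0.17 (edgeR adjusted p = 0.399). In MS+EA relative to Control rats, Arrb1, a beta-arrestin gene, had -0.53 (edgeR adjusted p = 0.0592), Gna11, a Gq family gene, -0.30 (edgeR adjusted p = 0.0624) and Gnai2 -0.26 (edgeR adjusted p = 0.0749). The summed cortical excitatory markers were also lowest in the 3 MS+EA rats, with means of 1287 CPM for Slc17a7 and 1768 CPM for Camk2a against 1590 and 2267 CPM in Control rats, and their part in these values, and in that of Scg3, was not tested. Without the Control rat A2, Arrb1 was called, with a log2 fold change of -0.67 (edgeR adjusted p = 0.0353). Of the developmental factors, Pou3f2, Pou3f1 and Arnt2, which the cortex also expresses, had log2 fold changes of 0.08, 0.05 and -0.09 in MS relative to Control rats, and Arnt2 had -0.21 in MS+EA relative to Control rats (edgeR adjusted p = 0.0641). Sim1 and Otp did not pass the filter.

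**Figure D4:**
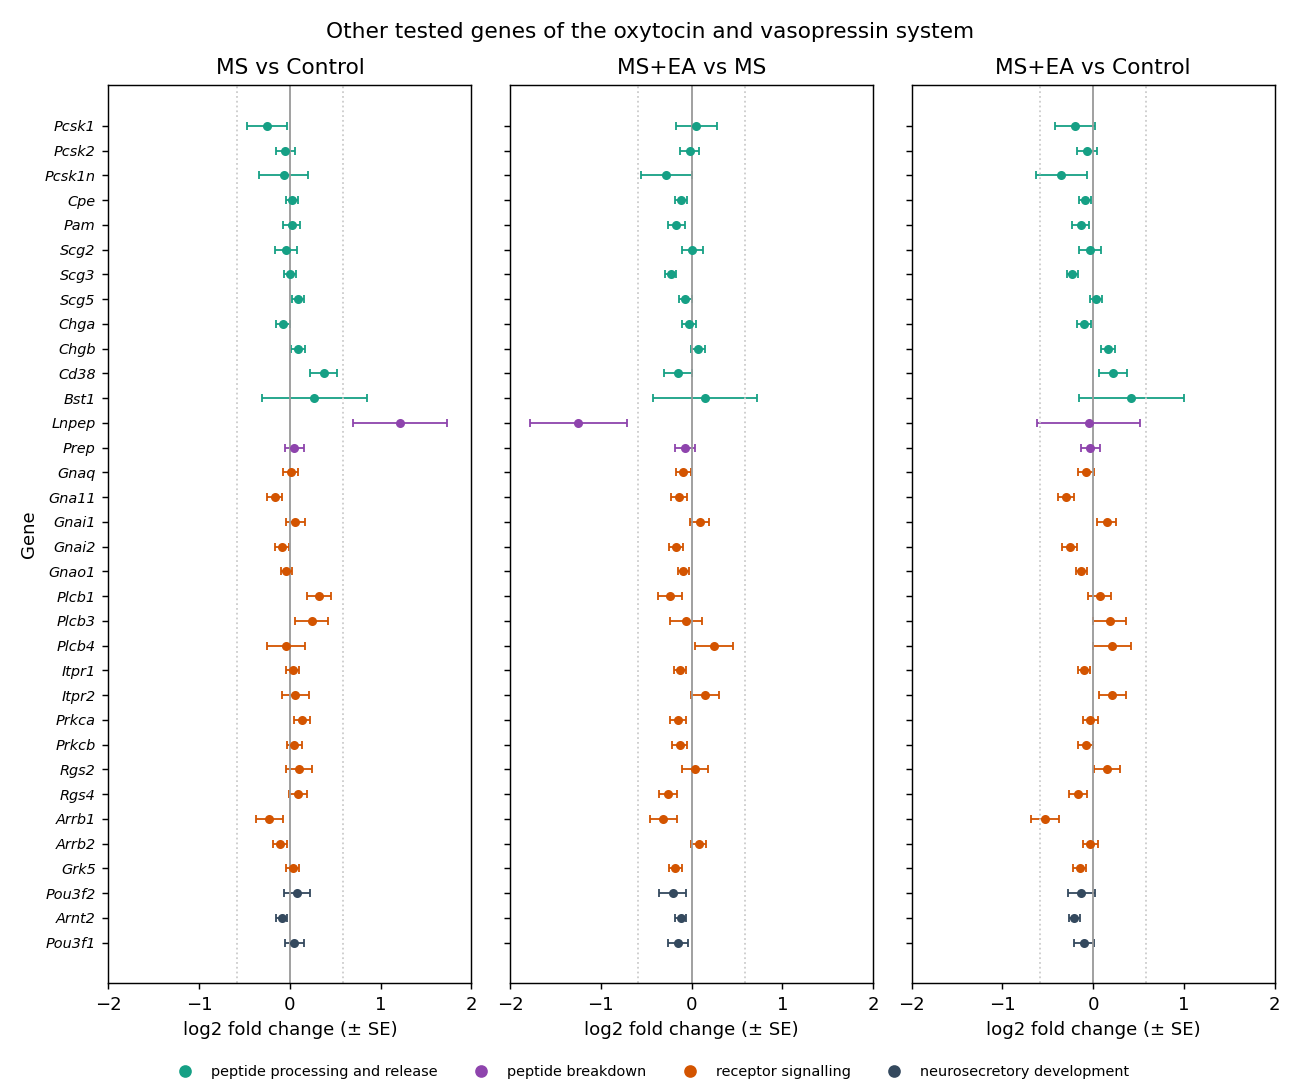
Log2 fold changes with standard errors of the other tested genes of the system, all but 1 of 35, in the 3 comparisons, colored by role, with dotted lines at a fold change of 1.5. Lnpep lies at 1.21 and -1.25 in the MS comparisons with wide errors, and no other gene shown passes the dotted lines.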

How the data were processed

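The authors filtered the reads for quality, mapped them to Rnor_6.0 with HISAT2 (version 2.0.4 per the labels' processing notes) and deposited whole-number read counts per gene for 9 rats, without normalization. The counting program, its strand setting and the treatment of reads with several locations are not given in the sources used here. Counts were scaled by TMM in edgeR 4.0.16 (R 4.3.3). Genes were kept by filterByExpr with a minimum count of 10, and the quasi-likelihood F test compared group means in a joint fit of the 9 rats. P-values were adjusted by Benjamini-Hochberg over 16837 genes, and the study's thresholds (adjusted p below 0.05, fold change above 1.5) were applied. The study used EBSeq in place of edgeR. A standard error is the absolute log2 value over the root of its F statistic. The biological coefficient of variation, a common value over all tested genes, was 12.7%. It does not describe Oxt and Avp, whose SDs in MS rats were above their means. Nothing in the labels ties the rats to litters, so p-values measure the spread between these rats. Intervals and floors cover counting error only.

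The 4 genes and all lists were chosen with earlier results of these data known. Named are the 4 genes, each gene of the receptor, processing, breakdown and development lists, signalling genes with an unadjusted p under 0.05 (1 is not reported here), markers with more than 10 counts and over 1.5 times the next rat, and the 5 or 3 genes with the largest profile overlap among genes of at least 50 counts. Named beyond this rule, after their values were seen, were Otp, Magel2, Lhb, Cga, Chrna3, Nwd2, Trpc4, Slc17a6, Slc17a7 and Camk2a. The same holds for the other thalamus and choroid plexus markers that do not meet it, the listed markers at or near 0 and the flanking genes. Alternatives were DESeq2 1.42.0, its size factors, total counts, a filter of 1 count, a fit of the compared 6 rats, the adjusted p as the only threshold, and leaving out each rat in turn. The fit was tested on simulated data.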

Additional observations from a re-analysis of the deposited data

How the results depend on the processing

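The log2 fold changes of Oxt, Avp and Oxtr moved by less than the spread between rats with DESeq2's size factors, total counts, a filter of 1 count, the 6 rats compared or DESeq2, except that with 6 rats the filter removed Oxt from both MS+EA comparisons and Oxtr from that of MS+EA with MS. Leaving out each rat gave log2 fold changes of -0.14 to 4.89 for Oxt and 0.90 to 5.87 for Avp in MS relative to Control rats, and of -7.25 to -3.28 for Oxt and -5.06 to -1.25 for Avp in MS+EA relative to MS rats, where the value nearest to 0 is the value without B4 in each case. Genes called over the whole table numbered 4 between MS and Control rats, 3 between MS+EA and MS rats and 230 between MS+EA and Control rats. They numbered 207, 72 and 469 with all genes of at least 1 count. The first comparisons gave 11 and 1 with only the 6 rats compared, and 70 and 37 with DESeq2. Without the fold change threshold 910 genes passed between MS+EA and Control rats, of which 1, Scg3, was on the list of 39. With a rat left out, the numbers were 2 (A1 or A2) to 22 (B3), 1 (A1 or C16) to 4, and 69 (A1) to 304, with 9 in the first comparison without C3, 10 without C10 and 121 in the last without C10. Of the list, 0 to 1 passed between MS+EA and Control rats, Arrb1 without A2. The cause of these shifts was not tested. Avpr1a, fitted only with the filter of 1 count, had log2 fold changes of 0.42, -0.97 and -0.55 in the 3 comparisons, with standard errors of 0.795, 0.858 and 0.882.

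No paired analysis was possible because the groups compared share fewer than 2 replicate numbers and the rats are different animals. Few reads limit the values of Avpr1a, Avpr1b, Sim1 and Otp, and the smaller MS+EA libraries raise the floor there to 0.238 CPM at most.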
